A study of Mus musculus with 12 samples.

Results

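The genes described here are the NF-kappaB subunits Nfkb1, Nfkb2, Rela, Relb and Rel, the inhibitors Nfkbia and Nfkbie, the nuclear regulators Nfkbiz and Bcl3, and the feedback enzyme Tnfaip3. They were taken from the deposited count table by gene symbol, and all 10 of 10 were found among its 34513 genes. All 10 passed the filter on low counts, which kept 18338 genes.

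RNA of 3 mouse melanocytic lines was sequenced, each as an untreated control and after SX-682, an antagonist of the chemokine receptors CXCR1 and CXCR2, with 2 libraries in each of the 6 groups. MelanA is an immortalised melanocyte line that does not form tumors, B16F0 is a melanoma line that does, and B16F10 is a metastatic line of the same B16 melanoma. The cells were grown as cultures, without the immune and stromal cells of a tumor, to ask which effects of SX-682 occur in the melanocytic cells themselves. How much SX-682 these cultures received, and for how long, is not given in the sources used here; the labels name no vehicle for the controls, and each kind of cell is 1 line.

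NF-kappaB factors are dimers of subunits that share a Rel homology domain. In resting cells, inhibitory IkappaB proteins hold the dimers in the cytoplasm until a kinase complex marks the inhibitors for destruction, which frees mostly dimers that contain Rela (the canonical pathway). In the noncanonical pathway the kinase encoded by Map3k14 triggers processing of the Nfkb2 product, which then acts with Relb. Genes of the inhibitors are themselves targets of NF-kappaB, so that the pathway restrains itself. In melanocytic cells NF-kappaB is known for the control of survival genes and of chemokines such as Cxcl1, a ligand of CXCR2.

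The sites through which such feedback is known to work were looked for in the reference sequence, and those found at the first annotated start of each member are shown because 6 members carry one. RefSeq start-site windows (build GRCm38.p6, 250 bases before to 50 after the start) were at hand for 7 of the 10 members; Nfkb1, Relb and Nfkbiz are named only. The kappaB consensus, searched on both strands, was found in 6 of these 7 members, the exception being Rela, where 5.14% of the 27025 genes of the table held it in any window. By window, it was in 8 of the members' 10 and in 4.51% of all 32851. Each line gives 30 bases on the strand of the gene, 5′ to 3′, with the letters that match in capitals.
Nfkbia, chr12:55492657-55492686, minus strand, upstream of the gene: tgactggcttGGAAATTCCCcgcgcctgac
Nfkbie, chr17:45555584-45555613, plus strand, upstream of the gene: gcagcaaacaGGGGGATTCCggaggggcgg
Nfkb2, chr19:46304688-46304717, plus strand, exon: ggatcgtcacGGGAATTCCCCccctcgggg
Nfkb2, chr19:46304716-46304745, plus strand, exon: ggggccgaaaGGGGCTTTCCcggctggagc
Rel, chr11:23771042-23771071, minus strand, upstream of the gene: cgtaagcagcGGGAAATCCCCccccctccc
Tnfaip3, chr10:19015516-19015545, minus strand, intron: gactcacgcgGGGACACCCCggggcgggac
Tnfaip3, chr10:19015403-19015432, minus strand, intron: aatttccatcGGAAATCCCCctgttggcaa
Bcl3, chr7:19822734-19822763, minus strand, exon: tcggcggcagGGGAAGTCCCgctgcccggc
Exon and intron are those of GENCODE M21, whose gene starts can lie before the RefSeq start. A match of letters is a description of the sequence and was not tested for binding.

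Library totals ran from 48876982 to 85322092 counts with a median of 66943832, and each library was closest to the other of its group. The fewest counts of any member in a library were 25 (Bcl3) and the most 11355 (Nfkb2). Levels are given as CPM, counts scaled to a common library total, and RPKM, which also divides by gene length, was used wherever genes are compared with each other. Changes were tested with edgeR's quasi-likelihood test, the p-values were adjusted by the Benjamini-Hochberg method over all 18338 genes, and a gene is said to rise, fall or differ where the adjusted p was under 0.05. With 2 libraries per group an exact permutation test cannot go below a 2-sided p of 0.333, and the p-values draw on a spread estimated over many genes (a coefficient of variation of 2.78%). The labels do not say that the replicates are separate cultures, so this spread may be technical. Of 8 melanocyte markers, 6 exceeded 1 CPM in both MelanA control libraries, 8 in B16F0 and 7 in B16F10, where Kit was at or under the floor of 3 counts. Their sums lay far apart, at 1340 to 1370 CPM in MelanA controls, 18600 to 18700 in B16F0 controls and 24400 to 24500 in B16F10 controls. Of 4 fibroblast markers, all exceeded 1 CPM in both MelanA controls; they summed to 65.9 to 69.1 CPM there, 47.5 to 48.2 CPM in MelanA with SX-682, 8.02 to 8.48 and 5.78 to 6.21 CPM in B16F0 without and with SX-682, and 1.26 to 1.42 and 1.65 to 1.93 CPM in B16F10. Dcn and Lum were at or under the floor in each B16 group. These markers thus moved with line and treatment, and their part in the results was not tested. Keratinocyte (4 genes), endothelial (3) and leukocyte (5) markers summed to at most 2.95, 2.24 and 0.379 CPM in any library.

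SX-682 was compared with control in each line to see whether the pathway's own genes moved. Transcripts of Relb, Tnfaip3, Nfkb2, Rel and Nfkbia rose in all 3 lines, and Nfkbiz fell in all 3. Relb rose by 1.84- to 2.12-fold and Tnfaip3 by 1.85- to 2.46-fold over the lines, whereas the rise of Nfkbia ranged from 1.14-fold in MelanA to 2.36-fold in B16F0. Nfkb1 fell in MelanA and B16F10 but rose slightly in B16F0, and Nfkbie fell in B16F10 and rose in B16F0. In MelanA 7 members rose and 2 fell, where 48.2% of all genes tested changed (23.4% rose and 24.7% fell). In B16F0 7 rose and 1 fell against 50.1% of all genes (25.1% up, 25% down); without B16F0 control replicate 1 the counts there were 5 and 0. In B16F10 7 rose and 3 fell against 50.8% of all genes (25.5% up, 25.3% down). The 5 members raised in all 3 lines stand against 11.3% of all genes, and the 1 lowered in all 3 against 11.7%. The median log2 change of the 10 members was 0.23 in MelanA, 0.30 in B16F0 and 0.48 in B16F10, with a median of 0 over all genes in each line. With a log2 change of at least 1 also required, no member passed in MelanA or B16F10 (5.5% and 8.18% of all genes passed), and Relb, Nfkbia and Tnfaip3 passed in B16F0 (7.83%). In bulk RNA, fewer cells that express a gene and less RNA per cell cannot be told apart.

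**Figure D1:**
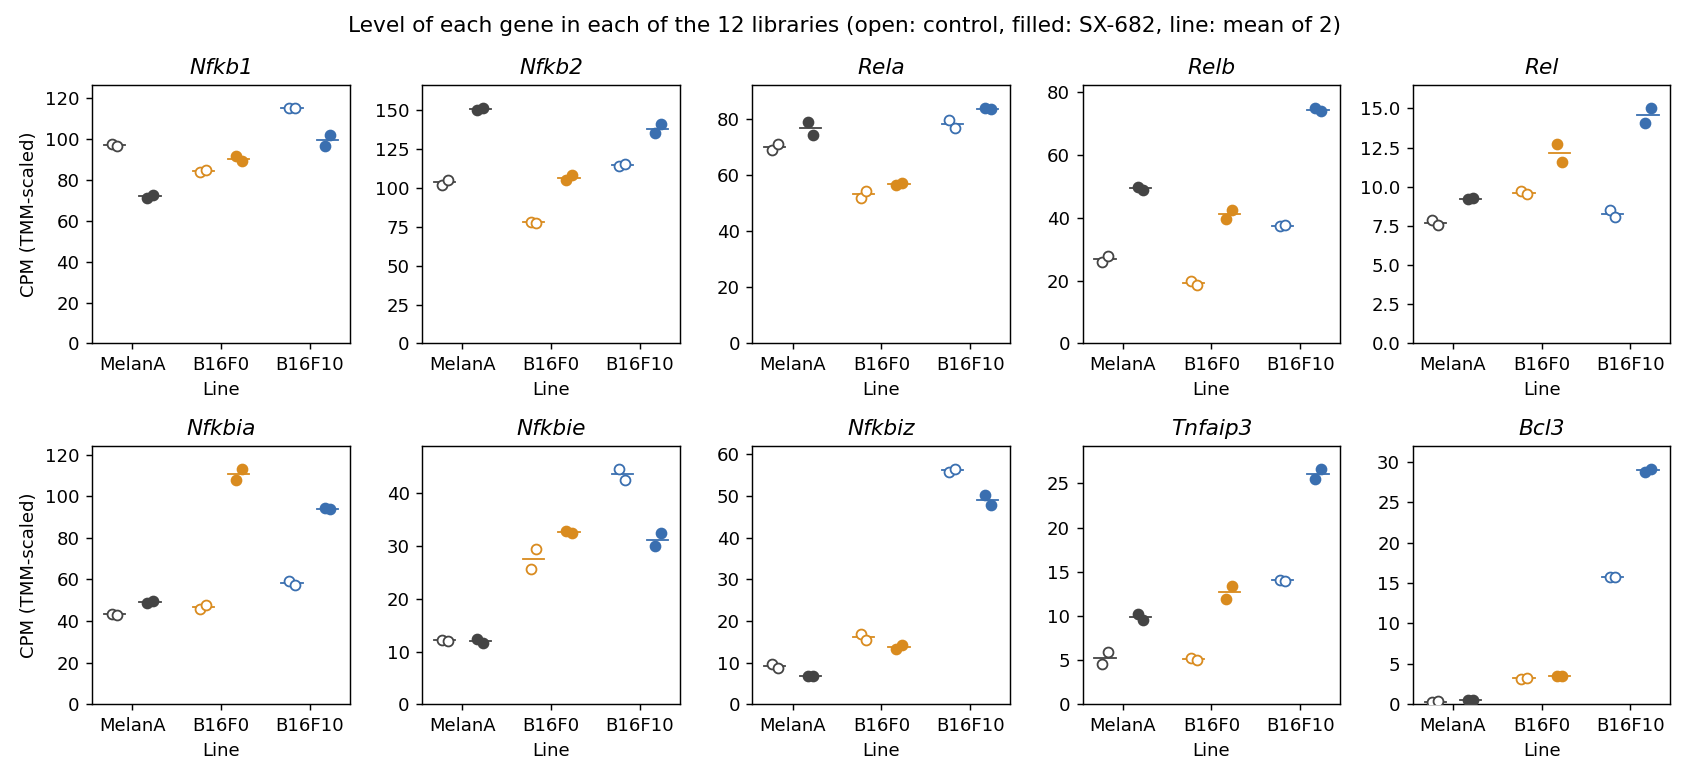
Level (CPM after TMM scaling, linear axis from 0 and different for each gene) of the 10 genes in the 12 libraries; open points are controls, filled points SX-682 libraries, and the short line is the mean of 2. Relb and Tnfaip3 lie higher with SX-682 in each line, while Bcl3 climbs from under 1 CPM in MelanA to over 28 CPM in treated B16F10.

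**Figure D2:**
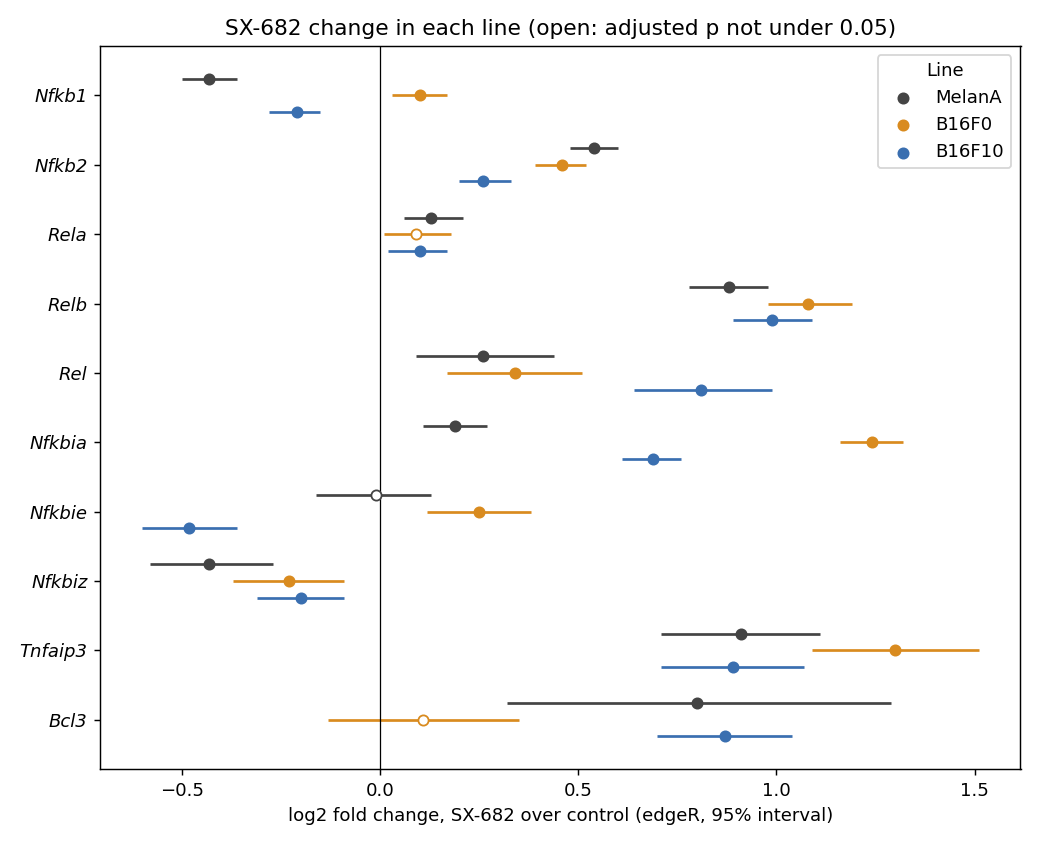
log2 fold change of SX-682 over control (x axis) for each gene (y axis) and line. The 95% intervals were computed from edgeR's log2 fold change and F value. Open points did not pass an adjusted p of 0.05. The intervals of Relb lie between 0.78 and 1.19 in all 3 lines, and those of Nfkb1 and Nfkbie lie on different sides of 0 in B16F0 and B16F10.

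Among the subunits, Relb, the partner of processed Nfkb2 in the noncanonical pathway, rose in every line. Its level was 25.8 and 27.8 CPM in MelanA controls and 49.8 and 48.9 CPM with SX-682. In B16F0 it was 19.9 and 18.7 CPM without and 39.6 and 42.5 CPM with SX-682, and in B16F10 37.3 and 37.6 CPM without and 74.7 and 73.9 CPM with it. Control and treated libraries were apart in each line, and the treated B16F10 libraries were the highest of all. The log2 change was 0.88 ± 0.047 (SE) in MelanA (adjusted p = 1.3e-15), 1.08 ± 0.052 in B16F0 (7.3e-17) and 0.99 ± 0.047 in B16F10 (3.9e-17). Without treatment Relb was lowest in B16F0, at 0.721-fold of MelanA, and 1.40-fold of MelanA in B16F10. The gene lies at chr7:19606217-19629438 (minus strand, GRCm38).

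Nfkb2, whose product is a long precursor that also acts as an inhibitor until it is processed, rose with SX-682 as well. It stood at 102 and 105 CPM in MelanA controls against 150 and 151 CPM with SX-682, at 78.2 and 77.5 against 105 and 108 CPM in B16F0, and at 114 and 115 against 135 and 141 CPM in B16F10. The libraries did not overlap within a line. The rise was 1.45-fold in MelanA (adjusted p = 2.2e-15), 1.37-fold in B16F0 (3.8e-13) and 1.2-fold in B16F10 (1.3e-08), and it was smaller in B16F10 than in MelanA by 0.28 ± 0.043 on the log2 scale (a difference of -0.28, adjusted p = 5.4e-06). The untreated level was 0.751-fold of MelanA in B16F0 and 1.11-fold in B16F10. Nfkb2 (chr19:46304320-46312385, plus strand) shares 18.1% of its exon bases with Psd and AC114539.1 on the opposite strand, and the treatment of strand in the counting is not given in the sources used here, so their reads may not be told apart; Psd itself had 6.89 to 18.4 CPM.

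Nfkb1 encodes the precursor of the usual partner of Rela, and it was the subunit whose direction differed between lines. MelanA controls had 97.6 and 96.4 CPM and treated libraries 71.1 and 72.8 CPM. B16F0 had 83.8 and 85.1 CPM without and 91.5 and 89.4 CPM with SX-682, and B16F10 had 115 CPM in both controls and 96.7 and 102 CPM with SX-682. The groups did not overlap in any line, with the treated libraries lower in MelanA and B16F10 and higher in B16F0. Nfkb1 fell by 0.43 ± 0.033 (SE) on the log2 scale in MelanA (-0.43, adjusted p = 3.2e-12) and by 0.21 ± 0.033 in B16F10 (-0.21, 2.1e-06). In B16F0 it rose by 0.10 ± 0.034 (0.013), and this small rise was lost without B16F0 control replicate 1 (log2 change 0.09, adjusted p = 0.092) or without B16F0 SX-682 replicate 1 (0.08, 0.10). The change in B16F0 differed from that in MelanA by 0.53 (adjusted p = 2.2e-10), and that in B16F10 from B16F0 by -0.31 (4.6e-06). Nfkb1 is at chr3:135584655-135691547, minus strand.

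Rela, the main activating subunit of the canonical pathway, moved least. Its level was 68.8 and 71.0 CPM in MelanA controls and 78.9 and 74.3 CPM with SX-682. B16F0 had 51.9 and 54.4 CPM without and 56.3 and 57.1 CPM with SX-682, and B16F10 79.5 and 76.9 CPM without and 83.7 and 83.5 CPM with it. The treated libraries were the higher in each line by a small margin. The log2 change was 0.13 in MelanA (95% interval 0.06 to 0.21, adjusted p = 0.0036), 0.09 in B16F0 (0.01 to 0.18, 0.051) and 0.10 in B16F10 (0.02 to 0.17, 0.035), so that Rela passed the test in MelanA and B16F10 alone. These calls hung on the settings: Rela in MelanA was lost without MelanA SX-682 replicate 1 (adjusted p = 0.09), in B16F10 without control replicate 2 (0.30), SX-682 replicate 1 (0.16) or SX-682 replicate 2 (0.095), and in B16F0 it passed without MelanA control replicate 1 (0.047) or B16F0 control replicate 2 (0.037). The untreated level was 0.760-fold of MelanA in B16F0 and 1.12-fold in B16F10. Rela lies at chr19:5637483-5648130, plus strand.

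Rel encodes the activating subunit best known from lymphocytes and had the lowest RPKM of the 5 subunits in each group. It was read at 7.88 and 7.55 CPM in MelanA controls and 9.24 and 9.26 CPM with SX-682, at 9.74 and 9.53 against 12.7 and 11.6 CPM in B16F0, and at 8.52 and 8.06 against 14.1 and 15.0 CPM in B16F10. Treated libraries were above controls in each line. The rise was 1.2-fold in MelanA (adjusted p = 0.011), 1.27-fold in B16F0 (0.0012) and 1.76-fold in B16F10 (1.9e-09), and the log2 change in B16F10 exceeded that in MelanA by 0.55 ± 0.12 (0.00049) and that in B16F0 by 0.47 ± 0.12 (0.0028). In MelanA the call was lost without control replicate 2 (adjusted p = 0.072) or SX-682 replicate 2 (0.052). Rel is at chr11:23736847-23770970, minus strand.

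In the make-up of the subunit transcripts, the share of Relb was larger with SX-682 in each line and those of Nfkb1 and Rela were smaller. Relb took 11% and 11.5% of the summed RPKM of the 5 subunits in MelanA controls and 16.3% in both treated libraries. In B16F0 its share was 10.8% and 10.1% without and 16.8% and 17.6% with SX-682, and in B16F10 13.5% and 13.7% without and 22.4% and 21.8% with it. Nfkb1 went from 13.4% and 12.8% to 7.53% and 7.83% of the sum in MelanA, from 14.7% and 14.8% to 12.5% and 11.9% in B16F0, and from 13.4% and 13.6% to 9.33% and 9.71% in B16F10. Rela went from 37% and 37.1% to 32.8% and 31.4% in MelanA, from 35.7% and 37.1% to 30.2% and 29.9% in B16F0, and from 36.4% and 35.5% to 31.7% and 31.1% in B16F10. Control and treated shares of these 3 genes were apart in each line, although the level of Rela was not lower in any line and that of Nfkb1 rose in B16F0. The RPKM ratio of Nfkb2 to Nfkb1 was 2.75 and 2.87 in MelanA controls and 5.55 and 5.47 with SX-682, whereas in B16F0 it was 2.46 and 2.4 against 3.03 and 3.19 and in B16F10 2.61 and 2.63 against 3.68 and 3.62. These shares and ratios restate the per-gene levels, were not tested, and concern transcripts, not proteins.

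**Figure D3:**
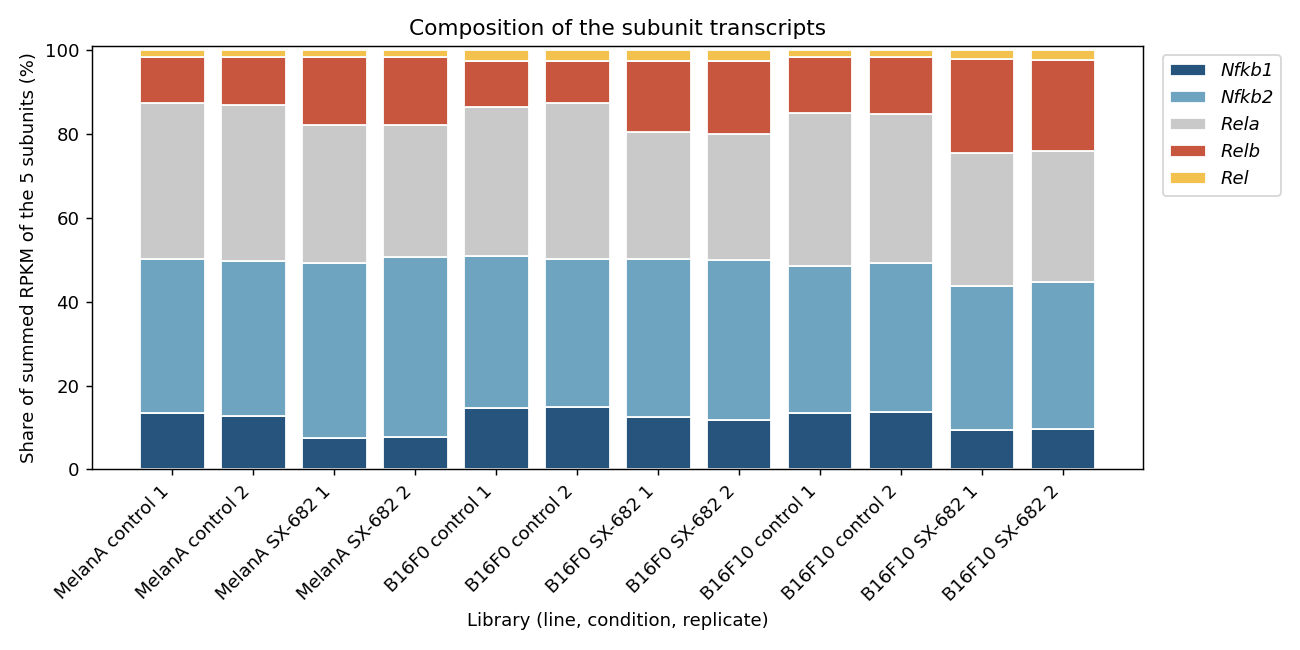
Share (percent, y axis) of the summed RPKM of the 5 subunit genes taken by each in every library (x axis: line, condition, replicate). The Relb segment widens with SX-682 in each line, to 22.4% and 21.8% in B16F10, and the Nfkb1 segment narrows, to 7.53% and 7.83% in MelanA.

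Of the inhibitors, Nfkbia encodes the IkappaB protein that is resynthesised fastest after NF-kappaB activity and is the standard readout of the feedback. MelanA had 43.3 and 43 CPM without and 48.6 and 49.8 CPM with SX-682. The treated libraries of B16F0 reached 108 and 113 CPM from 46.0 and 47.6 CPM, and those of B16F10 94.3 and 93.8 CPM from 59.3 and 57.5 CPM. All 4 treated B16 libraries were above every other library, while the MelanA groups differed by a few CPM without overlap. The log2 change was 0.19 ± 0.038 (SE) in MelanA (adjusted p = 0.00011), 1.24 ± 0.037 in B16F0 (8.5e-22) and 0.69 ± 0.037 in B16F10 (6.9e-16). The change in B16F0 was larger than in MelanA by 1.05 ± 0.053 (8e-16), and in B16F10 larger than in MelanA by 0.50 ± 0.053 (7.1e-09). Nfkbia lies at chr12:55489410-55492647, minus strand, and the site printed first among the sequences lies just upstream of it.

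Nfkbie, a second inhibitor of the same class, did not follow Nfkbia. It was at 12.2 and 12 CPM in MelanA controls and 12.4 and 11.6 CPM with SX-682. B16F0 had 25.7 and 29.4 CPM without and 32.8 and 32.5 CPM with SX-682, and B16F10 44.6 and 42.6 CPM without and 30.1 and 32.4 CPM with it. The MelanA groups overlapped, the treated libraries were higher in B16F0 and lower in B16F10. The log2 change was -0.01 in MelanA (95% interval -0.16 to 0.13, adjusted p = 0.93), 0.25 in B16F0 (0.12 to 0.38, 0.001) and -0.48 in B16F10 (-0.60 to -0.36, 5e-08), and B16F10 differed from B16F0 by -0.73 ± 0.086 (8.1e-08). Without B16F0 control replicate 1 the rise in B16F0 was 0.15 and lost its call (adjusted p = 0.081). Nfkbie lies at chr17:45555703-45563169, plus strand.

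Tnfaip3 encodes a ubiquitin-editing enzyme that shuts off signalling upstream of the kinase complex. It was low in MelanA controls, at 4.55 and 5.93 CPM, and at 10.2 and 9.54 CPM with SX-682. B16F0 had 5.18 and 5.06 CPM without and 11.9 and 13.4 CPM with SX-682, and B16F10 14.1 and 14 CPM without and 25.5 and 26.6 CPM with it. Treated libraries were above controls throughout, and the untreated B16F10 libraries were above the treated libraries of both other lines. The rise was 1.88-fold in MelanA (adjusted p = 4.7e-09), 2.46-fold in B16F0 (6.2e-12) and 1.85-fold in B16F10 (4.7e-10). The log2 change in B16F0 exceeded that in MelanA by 0.39 ± 0.14 (0.036) and that in B16F10 by 0.41 (B16F10 minus B16F0 -0.41 ± 0.13, 0.021). The first of these was lost without MelanA control replicate 2 (0.17, adjusted p = 0.42), MelanA SX-682 replicate 2 (0.12), B16F0 control replicate 1 (0.077), B16F0 control replicate 2 (0.099) or B16F0 SX-682 replicate 2 (0.16), and the second without B16F0 control replicate 2 (0.066), B16F0 SX-682 replicate 2 (0.10), B16F10 control replicate 1 (0.052) or B16F10 SX-682 replicate 1 (0.064). The gene is at chr10:19000910-19015657, minus strand.

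Nfkbiz and Bcl3 encode IkappaB-like proteins that act in the nucleus on promoters bound by NF-kappaB dimers, and they moved apart. Nfkbiz was at 9.59 and 8.67 CPM in MelanA controls and 6.73 and 6.82 CPM with SX-682, at 16.8 and 15.3 against 13.3 and 14.2 CPM in B16F0, and at 55.8 and 56.4 against 50.1 and 47.8 CPM in B16F10. The treated libraries were the lower in each line. The log2 change was -0.43 ± 0.076 in MelanA (adjusted p = 2e-05), -0.23 ± 0.068 in B16F0 (0.0048) and -0.20 ± 0.055 in B16F10 (0.0028). The Nfkbiz fall in B16F0 lost its call without B16F0 control replicate 1 (-0.16, 0.12) or SX-682 replicate 1 (-0.18, 0.094), and that in B16F10 without SX-682 replicate 2 (-0.16, 0.057). Nfkbiz lies at chr16:55811375-55838899, minus strand.

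Bcl3 had 25 and 31 counts in the MelanA control libraries (0.29 and 0.34 CPM) and 40 and 41 counts with SX-682 (0.56 and 0.55 CPM). B16F0 had 3.15 and 3.27 CPM without and 3.46 and 3.47 CPM with SX-682, and B16F10 15.8 CPM in both controls and 28.8 and 29.1 CPM with SX-682. The treated libraries were above the controls in every line, by a narrow margin in MelanA and B16F0. The log2 change was 0.80 in MelanA (95% interval 0.32 to 1.29, adjusted p = 0.0055), 0.11 in B16F0 (-0.13 to 0.35, 0.46) and 0.87 in B16F10 (0.70 to 1.04, 1.4e-10). The MelanA call rests on few counts and was lost without MelanA control replicate 1 (0.70, adjusted p = 0.058) and in a fit of MelanA alone (0.81, 0.075). In B16F10 the change exceeded that in B16F0 by 0.76 ± 0.14 (9e-05). Bcl3 lies at chr7:19808462-19822770, minus strand, and shares 6.51% of its exon bases with Gm16175 on the opposite strand.

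Whether the response differed among the lines was tested for each gene with 1 F-test over the 3 changes. It differed for 7 of the 10 members (Nfkb1, Nfkb2, Rel, Nfkbia, Nfkbie, Tnfaip3 and Bcl3), where 47.4% of all genes did. Relb (adjusted p = 0.053), Nfkbiz (0.11) and Rela (0.82) did not pass this test, although for Relb the pair B16F0 and MelanA differed by 0.20 on the log2 scale (0.025; interval 0.06 to 0.35). That pairwise call was lost under library totals (0.17, adjusted p = 0.062) and with no filter (0.19, 0.052). It was also lost without MelanA control replicate 2 (a difference of 0.14), MelanA SX-682 replicate 1 (0.21) or 2 (0.18), B16F0 control replicate 2 (0.16) or B16F0 SX-682 replicate 2 (0.15). The intervals of pairwise differences were 0.04 to 0.42 for Nfkbiz between B16F10 and MelanA, and -0.11 to 0.11 for Rela between B16F10 and B16F0. By pairs, 6 members differed between B16F0 and MelanA (34.4% of all genes), a count of 2 without MelanA SX-682 replicate 2 or B16F0 SX-682 replicate 2 and of 3 without MelanA control replicate 2, B16F0 control replicate 1 or B16F0 control replicate 2. There were 5 between B16F10 and MelanA (33.8%) and 7 between B16F10 and B16F0 (30.3%). Each pair of comparisons shares the libraries of a line and is not independent. Summed melanocyte markers also moved with treatment in the B16 lines, from 24400 to 24500 CPM in B16F10 controls to 14900 to 15200 CPM with SX-682 and from 18600 to 18700 to 15800 to 16000 CPM in B16F0, while MelanA was at 1340 to 1370 CPM in all 4 libraries; their part in the differences between lines was not tested.

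Without treatment, Bcl3, Nfkbiz, Nfkbie and Tnfaip3 had the largest differences between lines among the members. Bcl3 was 10.1-fold higher in B16F0 and 49.9-fold higher in B16F10 than in MelanA (log2 differences 3.34 ± 0.17 and 5.64 ± 0.14, adjusted p = 2.4e-17 and 2.8e-25). Nfkbiz was 1.76-fold and 6.15-fold higher and Nfkbie 2.27-fold and 3.60-fold higher. Tnfaip3 was 2.67-fold higher in B16F10 than in MelanA, whereas in B16F0 it was 0.975-fold of MelanA (95% interval of the log2 difference -0.26 to 0.18, adjusted p = 0.77). For these 4 genes B16F10 was the highest line, and its control libraries overlapped with no control library of another line.

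The 5 subunits and Nfkbia differed by less, between 0.721-fold and 1.94-fold in any pair of untreated lines. Nfkb1, Nfkb2, Rela and Relb had the same order, with B16F0 lowest and B16F10 highest; the lead of B16F10 over B16F0 was 1.37-fold for Nfkb1, 1.47-fold for Nfkb2, 1.47-fold for Rela and 1.94-fold for Relb. Rel was highest in B16F0, 1.25-fold over MelanA (adjusted p = 0.0012), and B16F10 was 0.859-fold of B16F0 (0.031), a call that was lost when 1 of MelanA SX-682 replicate 1 (0.051), B16F0 control replicate 1 (0.14), B16F0 control replicate 2 (0.07) and B16F10 control replicate 2 (0.21) was left out. Nfkbia rose from MelanA through B16F0 (1.08-fold, 0.0074) to B16F10 (1.35-fold, 1.4e-11). The first step was lost under RLE scaling (0.054), library totals (0.59), a stricter filter of 10 or more counts in all libraries (0.071) and DESeq2 as the test (0.087). It was also lost without B16F0 control replicate 2 (log2 difference 0.10).

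In counts, 5 members were higher and 4 lower in B16F0 than in MelanA, where 75.9% of all genes differed (35.3% higher, 40.6% lower). Against MelanA, 9 were higher and 0 lower in B16F10, where 74.2% of all genes differed (33.4% higher, 40.8% lower). Against B16F0, 9 were higher and 1 lower in B16F10, where 62% differed (30.8% higher, 31.2% lower). The member with no call was Tnfaip3 in the first comparison and Rel in the second (log2 difference 0.10, adjusted p = 0.29). The median of all genes was -0.10 in B16F10 against MelanA with the scaling used and -0.29 with library totals alone, and the share of higher genes among all calls went from 45% to 34.3%. Under library totals Nfkb2 (-0.04), Rela (-0.02) and Rel (-0.08) were no longer above MelanA and Nfkb1 (0.06, adjusted p = 0.072) no longer passed, while the calls of the other 6 genes held under each scaling tried. Each untreated comparison shares control libraries with the others and with the SX-682 comparisons, and the lines were grown apart, so that line and culture cannot be told apart.

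**Figure D4:**
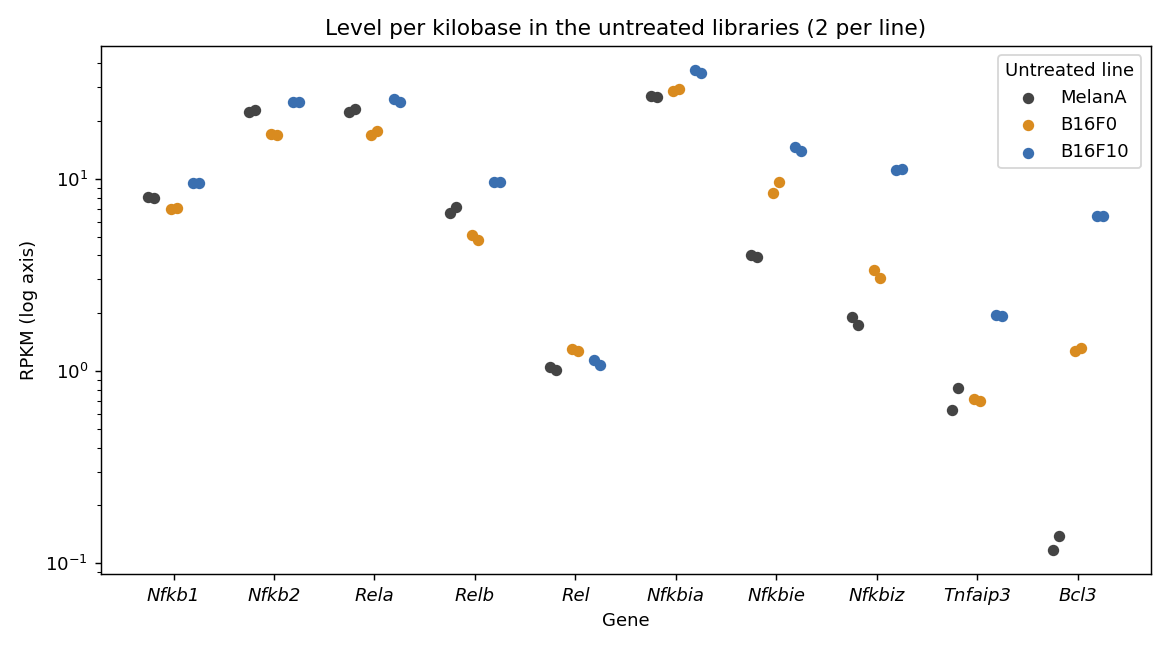
RPKM (log axis) of each gene (x axis) in the 2 untreated libraries of each line. Bcl3 spans 0.117 to 6.40 RPKM between MelanA and B16F10, while Rela, Nfkb2 and Nfkbia stay within 16.9 and 37 RPKM in each line.

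By level per kilobase, Nfkbia was the highest member in each untreated line, at 26.8 ± 0.097 RPKM (SD, n = 2) in MelanA, 29.1 ± 0.69 in B16F0 and 36.3 ± 0.80 in B16F10. Rela and Nfkb2 came next and could not be told apart in any line, with 22.7 ± 0.50 and 22.6 ± 0.47 RPKM in MelanA, 17.3 ± 0.59 and 17.0 ± 0.10 in B16F0, and 25.5 ± 0.59 and 25 ± 0.11 in B16F10. In MelanA Nfkb1 (8.04 RPKM), Relb (6.90), Nfkbie (3.97), Nfkbiz (1.82), Rel (1.03), Tnfaip3 (0.725) and Bcl3 (0.127) followed, their libraries apart at each step. In B16F0 the order was Nfkbie (9.04), Nfkb1 (7), Relb (4.97), Nfkbiz (3.20), then Bcl3 (1.30) and Rel (1.29), whose libraries overlapped, and Tnfaip3 (0.708). In B16F10 it was Nfkbie (14.3), Nfkbiz (11.2), Relb (9.63) and Nfkb1 (9.56), Bcl3 (6.40), Tnfaip3 (1.94) and Rel (1.11). The length is that of all annotated exons joined, 12061 bases for Nfkb1 and 1610 for Nfkbia, so that a gene read mostly from a shorter transcript has its RPKM understated.

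SX-682 binds the receptors CXCR1 and CXCR2, whose transcripts were scarce. Cxcr2 had 79 and 76 counts in MelanA controls and 34 and 47 counts with SX-682, and 1 count at most in any B16 library, which is under the floor of 3 counts (0.033 to 0.0623 CPM over the libraries). Cxcr1 had 21 and 13 counts in MelanA controls, 2 and 3 with SX-682 and at most 5 in a B16 library. Receptor protein was not analysed here. Cxcl1, the CXCR2 ligand and NF-kappaB target, was at 0.637 and 0.671 CPM in MelanA controls and fell to 0.196 and 0.0799 CPM (log2 change -2.25, adjusted p = 1.5e-07). In B16F0 it rose from 12.7 CPM in both controls to 41.4 and 40.8 CPM (1.70, 3.4e-21), and in B16F10 from 79.4 and 81.5 to 132 and 127 CPM (0.69, 1.3e-14).

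The rest of the pathway was described through lists of other inhibitors, upstream kinases and adaptors, receptors and textbook target genes, for which counts and medians are given and no set test was run. The counts of each list are to be read beside the shares of all genes tested. With SX-682, 23.4% of all genes rose and 24.7% fell in MelanA, 25.1% and 25% in B16F0, and 25.5% and 25.3% in B16F10. The largest rise and fall of a list are named among genes past the threshold with a mean of at least 1 CPM over the 12 libraries and treated libraries beyond the controls. Of 15 other inhibitors tested, 5 rose and 3 fell in MelanA, 5 rose and 5 fell in B16F0, and 6 rose and 5 fell in B16F10, with median log2 changes of -0.05, -0.06 and -0.03. Nfkbil1, an IkappaB-like gene, had the largest rise of the list in each line, at 13.8 CPM in both MelanA controls against 24.9 and 23.9 CPM with SX-682 (0.82, adjusted p = 6.1e-11), with log2 changes of 0.97 in B16F0 (7e-12) and 1.08 in B16F10 (2.8e-13). Traf3, an adaptor that directs the Map3k14 kinase to degradation, had the largest fall in MelanA, from 30 and 30.4 to 23.8 and 23.6 CPM (-0.35, 1.5e-07), and in B16F0, from 120 and 124 to 69.9 and 71.1 CPM (-0.79, 8.8e-17). In B16F10 the largest fall was that of Zc3h12a, an RNase that degrades inflammatory transcripts (-0.43, 1.4e-05), and Traf3 fell by 0.29 there (-0.29, 2.9e-07).

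All 31 kinases and adaptors were tested, of which 13 rose and 6 fell in MelanA, 12 rose and 12 fell in B16F0, and 13 rose and 7 fell in B16F10 (medians 0.08, -0.06 and 0.07). The largest rise was that of Rnf31, the catalytic subunit of the linear ubiquitin ligase, in MelanA (0.73, adjusted p = 3.6e-12), and of Birc3, a ubiquitin ligase and NF-kappaB target, in B16F0 (1.04, 0.0025) and B16F10 (1.02, 0.0094). Birc3 was scarce, going from 2.1 and 2.6 to 4.71 and 4.94 CPM in B16F0 and from 0.695 and 1.14 to 2.01 and 1.73 CPM in B16F10. The largest falls were those of Ube2n, a ubiquitin-conjugating enzyme (-0.43, 5.8e-13), in MelanA, of the scaffold gene Card10 in B16F0 (-0.99, 8.6e-06) and of the receptor adaptor Myd88 in B16F10 (-0.45, 3.6e-05). Map3k14, picked after its values were seen because it sits upstream of Nfkb2 and Relb, was at 13 and 14.6 CPM in MelanA controls and 22.1 and 21.5 CPM with SX-682 (0.66, 1.9e-08). It went from 7.54 and 6.34 to 12.7 and 12.5 CPM in B16F0 (0.86, 2.1e-09) and from 6.18 and 5.95 to 9.56 and 9.44 CPM in B16F10 (0.65, 1e-06). Birc2 and Traf2 of the same list, also named after their values were seen, did not fall as Traf3 did. Birc2 rose in MelanA (0.55, 1.1e-09), B16F0 (0.62, 1.5e-10) and B16F10 (0.65, 1.1e-11). Traf2 rose in B16F0 (0.23, 0.00021) and B16F10 (0.23, 6.4e-05) and had no call in MelanA (0.09, 0.08). Chuk, a kinase gene of this list, had no call in MelanA (-0.04, 0.57), B16F0 (0.04, 0.53) or B16F10 (0.06, 0.28). The receptor gene Ltbr had no call in MelanA (0, 0.94) or B16F0 (0.07, 0.11) and fell in B16F10 (-0.10, 0.014). Chuk and Ltbr were also named after their values were seen. What these values together mean for the Map3k14 kinase was not tested.

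Of 16 receptors tested, 4 rose and 3 fell in MelanA, 5 rose and 4 fell in B16F0, and 3 rose and 6 fell in B16F10, with medians of -0.01, 0 and 0. Among those with a mean of at least 1 CPM, Tlr4, the endotoxin receptor, rose most in MelanA (0.48, adjusted p = 1e-10), and Il17ra, the interleukin-17 receptor chain, rose most in B16F0 (0.43, 1.1e-09) and B16F10 (0.42, 1.7e-09) but fell most in MelanA (-0.63, 0.00035), where it was read at 1.55 and 1.52 CPM in controls. The TNF receptor gene Tnfrsf1b fell most in B16F0 but from 0.961 and 1.04 to 0.273 and 0.727 CPM (-1.10, 0.00086), its mean over 1 CPM being set by MelanA and B16F10. The TWEAK receptor gene Tnfrsf12a fell most in B16F10, from 182 and 185 to 98.9 and 102 CPM (-0.87, 1.5e-21). Of the receptors under that mean, Cxcr1 and Ager in MelanA, Ager in B16F0 and Il1r1 in B16F10 passed the test with larger falls, and Cd40 and Il1r1, which had no counts in B16F0 controls, passed as raised in B16F0.

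Of 39 target genes tested, 13 rose and 12 fell in MelanA, 18 rose and 7 fell in B16F0, and 14 rose and 10 fell in B16F10. Their median log2 changes were -0.13, 0.71 and 0.30, where the median of all genes was 0. These medians weigh all target genes tested alike, also those read near 0 CPM in a line. Among such genes in B16F0, Ccl7 (4.66), Ltb (4.53), Il6 (2.10) and Ccl2 (1.28) had positive fitted changes, while that of Irf8 (-0.63) was negative. Medians of the well-read target genes alone were not computed. Among the target genes with a mean of at least 1 CPM, Junb, an AP-1 subunit, rose most in MelanA, from 128 and 127 to 339 and 342 CPM (1.42, adjusted p = 1.8e-22), and Cxcl1 fell most there. In B16F0 Lcn2, an iron-carrier binding protein, rose most but from 0.0534 and 0.0892 to 0.197 and 0.415 CPM (2.02, 0.0026), its mean over 1 CPM being set by MelanA and B16F10, and in B16F10 the stress gene Gadd45b rose most, from 10.8 and 10.7 to 46.0 and 41.5 CPM (2.02, 6.7e-23). Ccnd1, the gene of cyclin D, fell most in B16F0, from 291 CPM in both controls to 172 and 164 CPM (-0.79, 1.5e-21), and in B16F10 from 825 and 840 to 385 and 388 CPM (-1.11, 9.2e-26). Under that mean, Ccl7 in MelanA and B16F0, Ltb in B16F0 and Ccl20 in B16F10 passed the test with larger fitted rises from values near 0. Without treatment the target genes were lower in the B16 lines by median, at -1.48 in B16F0 and -0.88 in B16F10 against MelanA. The medians of all genes were -0.06 and -0.10, and target genes read near 0 CPM are included here too.

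**Figure D5:**
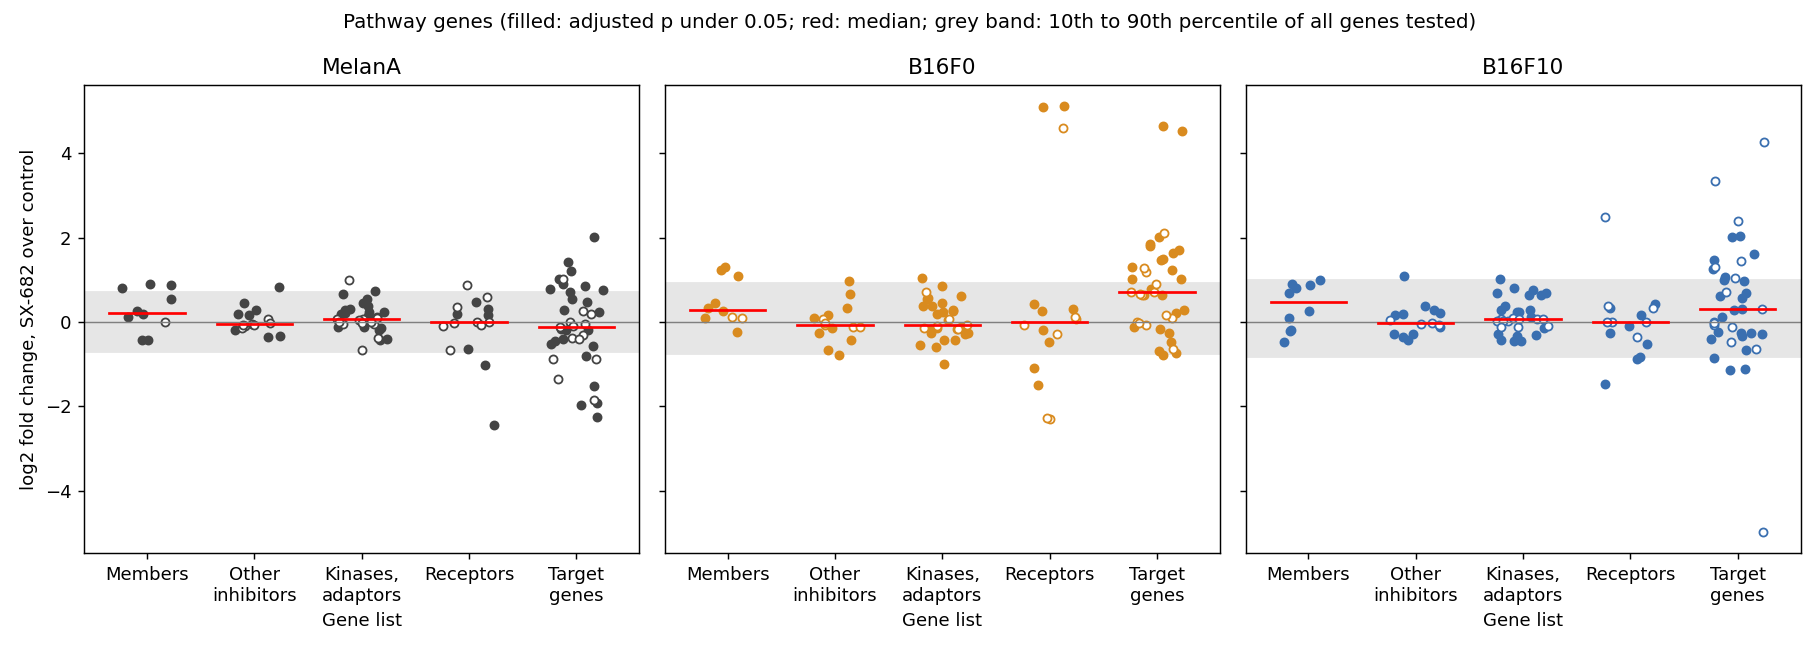
log2 fold change of SX-682 over control (y axis) in each line (panels) for the 10 members and the genes of each list (x axis); filled points passed an adjusted p of 0.05, the red line is the median of the genes tested and the grey band spans the 10th to 90th percentile of all genes. The median of the target genes, which includes genes read near 0 CPM in a line, is -0.13 in MelanA and 0.71 in B16F0. The members' medians are 0.23, 0.30 and 0.48.

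The genes whose log2 CPM over the 12 libraries was most like that of each member are given as a description, since the points share lines and libraries. They were Tpr (Pearson r = 0.982) and Psme4 (0.977) for Nfkb1, Bcl6 (0.983) and Zfp746 (0.972) for Nfkb2, Ggcx and Nr3c1 (both 0.993) for Rela, Clpx (0.985) and Fth1 (0.979) for Relb, and Ift172 (0.989) and Katna1 (0.976) for Rel. For the other members they were Ubr4 (0.986) and Sik3 (0.98) for Nfkbia, Mmp14 (0.991) and Gm39458 (0.99) for Nfkbie, Bdh1 and Pomgnt1 (both 0.996) for Nfkbiz, Efl1 (0.982) and Ptk2 (0.979) for Tnfaip3, and Aktip (0.997) and Chchd3 (0.996) for Bcl3. No member was among the 2 most alike genes of another member.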

How the data were processed

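RNA was extracted from cell cultures with a column kit and sequenced as Illumina libraries. Cutadapt, STAR, DESeq2 and the mm10 build are named in the submitters' processing notes, and the counting program and its use of strand are not given in the sources used here. The authors deposited raw read counts per gene for the 12 libraries in 1 table, with gene lengths; each column was matched to a library by its name, and groups and replicate numbers come from the labels.

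From these counts CPM (TMM scaling) and RPKM (the deposited exon length) were computed here. The 12 libraries, 6 groups of 2, were fitted together with edgeR 4.0.16 (R 4.3.3; quasi-likelihood F-test, edgeR's expression filter, no block, prior count 0.125), and p-values were adjusted by Benjamini-Hochberg over 18338 genes with a threshold of 0.05. Each standard error follows from the F value. The fit was tested on simulated counts. Replicates differed by more than counting noise in each group (chi-square per gene 2.86 to 5.29) and each counted as 1 sample. Intervals of fold changes were computed from edgeR's log2 change, this standard error and a t quantile, and include the spread between libraries. Floors of 3 counts cover counting error only.

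Within a line, treated and untreated libraries carry the same replicate numbers. The correlation of their deviations from the group means was 0.0031 in MelanA, -0.0091 in B16F0 and -0.013 in B16F10, so that no shared deviation was seen. This cannot show whether the libraries were prepared in pairs, which the labels do not say.

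The members and gene lists were chosen with earlier results of these data known. All 10 members were named; from each list, in each line, the largest rise and fall among genes past the threshold with a mean of at least 1 CPM and both SX-682 libraries beyond both controls; Cxcl1, Cxcr1 and Cxcr2; and for each member the 2 most correlated genes (log2 CPM, prior count 2). Map3k14, Birc2, Traf2, Chuk, Ltbr and Nfkbib, and Traf3 in B16F10, were named after their values were seen. Of the lists, Nfkbid and Bcl2a1b were not analysed here, and Tnip3, Tnfrsf11a, Tlr9, Cxcl3, Il1a, Il1b, Csf3, Ptgs2, Bcl2a1a, Bcl2a1d and Cd83 did not pass the expression filter. Alternatives were DESeq2 1.42.0, RLE scaling, library totals, no filter, a stricter filter (10 or more counts in all libraries), the replicate number as a block, a separate fit of the line, the controls alone, and each library left out. Coordinates and lengths of the members are the same in the table and in GENCODE M21 (GRCm38); promoter sequences are from RefSeq (GRCm38.p6).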

Additional observations from a re-analysis of the deposited data

Results flagged for a closer look

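The SX-682 change differed among the 3 lines for 7 members by a test of the difference itself (edgeR's quasi-likelihood F-test, Benjamini-Hochberg adjusted; 47.4% of all genes passed it). For Nfkbia the log2 changes in MelanA, B16F0 and B16F10 were 0.19, 1.24 and 0.69 (adjusted p = 2.8e-15), a range of 1.05. For Nfkb1 they were -0.43, 0.10 and -0.21 (6.2e-10), and for Nfkbie -0.01, 0.25 and -0.48 (1.2e-07). Nfkb2 had 0.54, 0.46 and 0.26 (1.2e-05), and Bcl3 had 0.80, 0.11 and 0.87 (0.00017). Rel had 0.26, 0.34 and 0.81 (0.00054). Tnfaip3 had 0.91, 1.30 and 0.89 (0.025), the weakest of the 7.

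The change was in the same direction in both libraries of each treated group against both controls for all 7 genes in every line except Nfkbie in MelanA, where the groups overlapped.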

How the results depend on the processing

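Of 1680 values recomputed under the alternatives, 1585 kept their direction and side of the threshold, 63 lost a call, 7 gained one and 25 changed sign. All of the last group were values without a call in the fit reported except Nfkb2 and Rela below. The 1680 values leave out the F-test among the 3 lines, whose changed calls are given further below. With each library left out in turn, the members changed by SX-682 in B16F0 ranged from 5 (without B16F0 control replicate 1) to 9 and those that fell there from 0 to 1; the members whose change differed between B16F0 and MelanA ranged from 2 (without MelanA SX-682 replicate 2 or B16F0 SX-682 replicate 2) to 6, being 3 without MelanA control replicate 2 or either B16F0 control. The 1 member lower in untreated B16F10 than in B16F0, Rel, became 0 with no filter, with the controls alone and with DESeq2, and ranged from 0 to 1 over left-out libraries. The cause of these shifts was not tested.

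Signs changed as follows. In MelanA the SX-682 change of Nfkbie was 0.01 under library totals and ranged from -0.05 to 0.05 over left-out libraries. Against MelanA, untreated B16F10 gave -0.04 for Nfkb2, -0.02 for Rela and -0.08 for Rel under library totals, and untreated B16F0 gave -0.22 to 0.17 for Tnfaip3 over left-out libraries, the latter without MelanA control replicate 2. Over left-out libraries the difference in the SX-682 change ranged from 0 (without B16F0 SX-682 replicate 1) to 0.13 for Rel between B16F0 and MelanA, and between B16F10 and MelanA from -0.23 to 0.14 for Tnfaip3 (above 0 without MelanA control replicate 1 or MelanA SX-682 replicate 1) and from -0.07 (without MelanA control replicate 2) to 0.16 for Bcl3. Between B16F10 and B16F0 it was -0.02 for Rela under RLE scaling, the stricter filter and DESeq2 and 0 with no filter, and over left-out libraries it ranged from -0.03 to 0.03 for Rela and from -0.04 to 0.1 for Nfkbiz.

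Calls near the threshold moved. Rela in B16F0 passed under RLE scaling (0.023), the stricter filter (0.018) and DESeq2 (0.039), and Rela in B16F10 was lost with no filter (0.093) and DESeq2 (0.085). Relb passed the test among lines under RLE scaling (0.049) and the stricter filter (0.033). It also passed without MelanA control replicate 1 or B16F0 SX-682 replicate 1, and Nfkbiz passed without MelanA control replicate 2. Tnfaip3 lost this call when 1 of 4 B16 libraries was left out (B16F0 control replicates 1 and 2, B16F0 SX-682 replicate 2, B16F10 SX-682 replicate 1). In the fit with a replicate block, the Bcl3 difference between B16F0 and MelanA was -0.69 with an adjusted p of 0.062, and no other call on a member changed. By the labels, the libraries of a block share only a number. This Bcl3 call was also lost with no filter (-0.71, 0.14) and with DESeq2 (-0.69, 0.057). It was lost too without any 1 of the MelanA and B16F0 libraries, the difference ranging from -0.83 to -0.59 over left-out libraries. Depth limits Bcl3 in MelanA (25 to 41 counts) and the receptors Cxcr1 and Cxcr2 in the B16 lines.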

Other observations

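The balance of Nfkbia and Nfkbie transcripts shifted toward Nfkbia with SX-682, more in the B16 lines than in MelanA. The RPKM ratio of Nfkbia to Nfkbie was 2.52 and 2.56 in untreated B16F10 against 5.93 and 5.47 with SX-682, and 3.39 and 3.06 in B16F0 controls against 6.24 and 6.57 with SX-682. In MelanA it was 6.70 and 6.80 in controls and 7.39 and 8.13 with SX-682, so the treated B16 libraries lay near the untreated MelanA libraries. The RPKM ratio of Nfkbia to Rela went from 1.69 and 1.67 to 3.66 and 3.78 in B16F0 and from 1.42 and 1.43 to 2.15 and 2.14 in B16F10, while the MelanA values were 1.2 and 1.16 in controls and 1.18 and 1.28 with SX-682. These ratios restate the levels of the genes and carry no test. Nfkbib, from the list of other inhibitors, is in neither ratio. Its log2 change was 0.08 in MelanA (adjusted p = 0.23), -0.13 in B16F0 (0.06) and -0.28 in B16F10 (5.4e-05).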
